A study of Homo sapiens with 6 samples.

Results

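The MS4A gene cluster of chromosome 11, with MS4A1, the gene for CD20, and its neighbours MS4A3, MS4A4A, MS4A6A and MS4A7, held 6 of the 32760 islands at which NFATc2 ChIP exceeded input in THP-1 cells. An island is a stretch of the genome in which the peak caller epic2 found more precipitated reads than the input predicted. The cluster was chosen by the islands already seen in it, so that their position, reads and fold are given as a description and with no test. All islands on chromosome 11 between 59.8 and 60.6 Mb (hg19) were taken as members, and those overlapping MS4A1, which lies at about 60.223 to 60.238 Mb, were counted as islands of that gene. Of the 6 islands, 3 lay in MS4A1.

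The experiment compared 3 NFATc2 IP libraries with 3 Input DNA libraries, the latter made from sheared chromatin that was not precipitated. All came from untreated THP-1 cells, a human acute myeloid leukaemia line of monocytic type that carries MLL-AF9, and the IP used the NFAT1 (D43B1) antibody, NFAT1 being another name of NFATc2. Islands were called by the authors with the libraries pooled, so the list holds 1 value per island and no spread between biological replicates. The cells are a single line in a single condition, and the list holds no expression values against which the monocytic identity of the cells could be checked. MS4A1 is known as a gene of B lymphocytes, and whether the cells match their label was not tested here. The paper states that its cell lines were authenticated by growth curves and morphology. It also reports RNA-seq of THP-1 cells, which was not used here.

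The MS4A genes encode small proteins that cross the membrane several times and sit side by side in the genome. CD20, the product of MS4A1, is the classical surface marker of B lymphocytes and the target of therapeutic antibodies against B-cell lymphoma. MS4A2 encodes the beta chain of the high-affinity IgE receptor of mast cells and basophils, MS4A3 is a gene of granulocyte and monocyte progenitors, and MS4A4A, MS4A6A and MS4A7 are known from monocytes and macrophages. NFATc2 is a transcription factor that enters the nucleus when calcium signals activate calcineurin, and NFAT proteins bind DNA at a GGAAA core.

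In the RefSeq gene order of GRCh38.p14, which was used for names and order only, the 16 MS4A genes looked up followed each other with MS4A1 at place 10. MS4A3 came at place 1, MS4A6A at place 3, MS4A4A at place 5 and MS4A7 at place 7, so that the other 4 members all precede MS4A1, while 6 family genes follow it, MS4A12 being the nearest. No hg19 position of these neighbours was used here, and an island outside MS4A1 is therefore given by its distance from MS4A1 and not by the gene it lies in.

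Upstream sequence was at hand for 13 of the 16 genes, and MS4A1, MS4A6E and MS4A15 were not matched. The 250 bases before the gene start were searched on both strands for GGAAA, and so also for its complement TTTCC. At 1 or more of their listed starts, 8 of the 13 genes had at least 1 match. Counted per stretch and not per gene, 55.6% of all 35116 RefSeq upstream stretches of that length had one. MS4A3 had the most, with 3 matches, a number reached or passed by 7.12% of all stretches. MS4A7 had 1 match, MS4A6A had 0 to 2 over its 4 listed starts, and MS4A4A had 0. The stretches of MS4A3 and MS4A4A are shown because they are the extremes among the members, with each match in capitals, from RefSeq, GRCh38.p14, plus strand, at chr11:60056415-60056664 and chr11:60280416-60280665. Whether an island lies at either of them is not known here, and a match is not a binding site.

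MS4A3: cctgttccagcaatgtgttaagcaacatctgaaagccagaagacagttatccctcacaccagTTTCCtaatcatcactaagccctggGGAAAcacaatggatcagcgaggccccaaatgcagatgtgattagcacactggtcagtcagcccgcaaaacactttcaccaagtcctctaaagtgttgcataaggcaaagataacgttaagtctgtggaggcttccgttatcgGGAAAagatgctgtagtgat

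MS4A4A: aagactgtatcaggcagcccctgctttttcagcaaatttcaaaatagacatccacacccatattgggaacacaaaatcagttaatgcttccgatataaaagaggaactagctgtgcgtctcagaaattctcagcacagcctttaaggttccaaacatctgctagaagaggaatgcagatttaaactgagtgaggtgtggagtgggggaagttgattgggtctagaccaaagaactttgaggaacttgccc

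The first of the 3 islands in MS4A1 lay at chr11:60223201-60223600 and was 400 bp wide. It began 201 bp after the approximate start of the gene, which is given to the nearest kb, so that it lay within 1 kb of that start. It held 100 IP reads and 63 input reads, against 35.4 IP reads that the scaled input predicted. Its log2 fold change was 1.498 (95% counting interval 1.03 to 1.98), which is 2.83-fold on a linear scale. The −log10 FDR of the authors was 16.1 and their score 149. Among all 32760 islands it ranked 59th by fold and 137th by FDR.

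The second island lay at chr11:60228401-60230000, from 5401 to 7000 bp after the approximate start, and was 1600 bp wide. It held 82 IP reads and 65 input reads where 36.5 IP reads were predicted, with a log2 fold change of 1.17 (0.68 to 1.66), a −log10 FDR of 8.72 and a score of 116. The third island lay at chr11:60235801-60239000 and was 3200 bp wide. It reached from 12801 bp after the approximate start to beyond the approximate end of the gene, and held 125 IP reads and 101 input reads where 56.7 were predicted. Its log2 fold change was 1.14 (0.75 to 1.53), with a −log10 FDR of 12.4 and a score of 113. MS4A1 thus had an island near its start, one in its body and one at its end, parted by 4.8 kb and 5.8 kb without an island. They covered 4.2 kb of the 15 kb of the gene.

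The counting intervals of the 3 islands overlapped, and that of each took in the log2 fold changes of the other two.

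**Figure D1:**
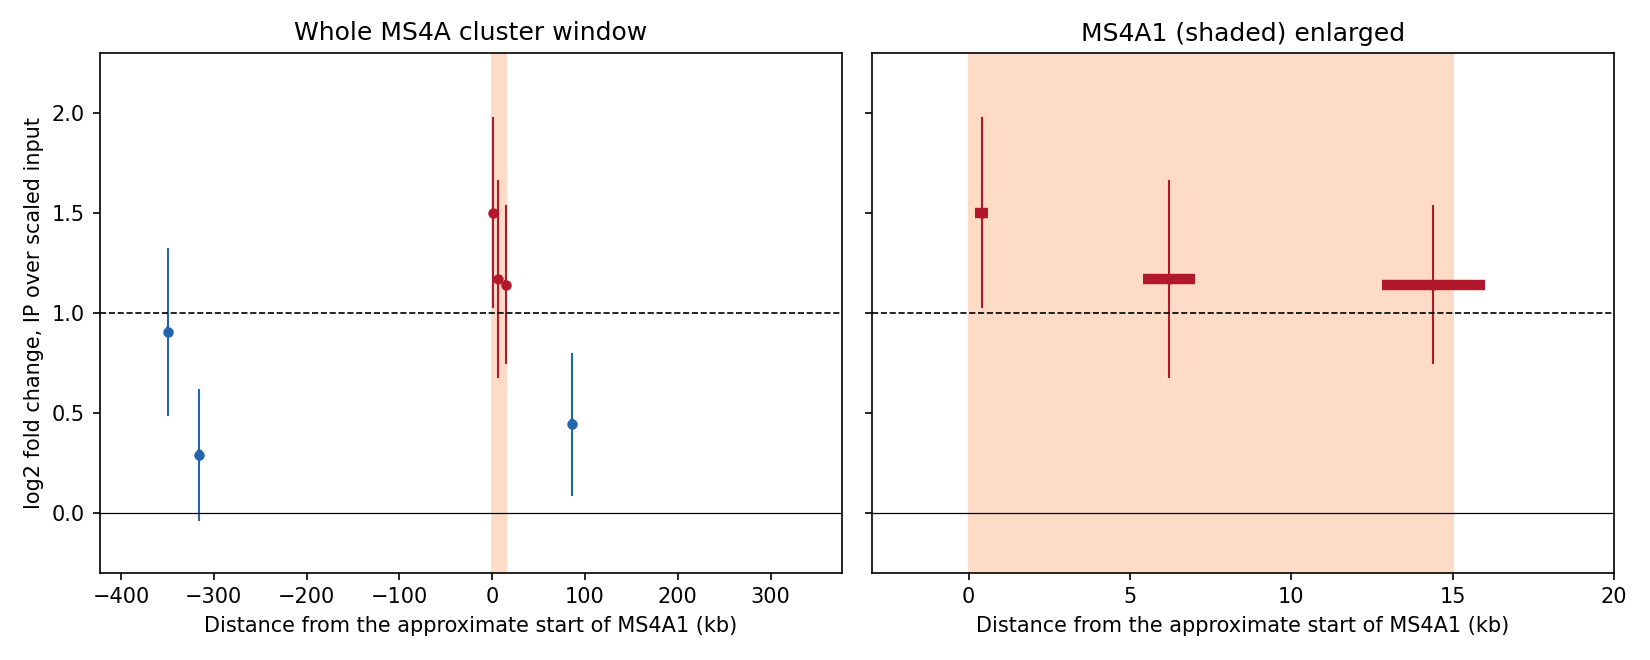
Log2 fold change, NFATc2 IP against scaled input (y axis), for the 6 islands of the MS4A window against distance from the approximate start of MS4A1 in kb (x axis), over the whole window at left and around MS4A1, shaded, at right. Thick horizontal lines give island width, thin vertical lines the 95% counting interval and the dashed line a log2 fold change of 1; the 3 red islands in MS4A1, at 1.498, 1.17 and 1.14, lie above that line and the 3 blue ones below it.

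Before MS4A1 the window held 2 islands. The more distant one, at chr11:59871801-59875200 and 347.8 kb before the gene, held 103 IP reads and 98 input reads, with a log2 fold change of 0.90 (0.49 to 1.32). The nearer one, at chr11:59905001-59910000, held 134 IP reads and 195 input reads and had the lowest log2 fold change of the window, 0.29 (−0.04 to 0.62), an interval that takes in 0. No island was listed in the 313 kb between it and the first island of MS4A1. After MS4A1 the only island of the window lay 68.2 kb beyond the third one, at chr11:60307201-60311200, where 120 IP reads stood against 157 from the input and the log2 fold change was 0.44 (0.09 to 0.80). How many reads lay between the islands is not known, because the list gives reads only inside islands, and no island in it has fewer than 32 IP reads.

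Side by side, the 3 islands in MS4A1 had log2 fold changes of 1.14 to 1.498 in widths of 400 to 3200 bp, and the 3 outside it 0.29 to 0.90 in widths of 3400 to 5000 bp. The window was chosen with these values known, and the islands in MS4A1 were also the narrower ones, so no test of the difference was made.

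All 3 islands of MS4A1, and 3 of the 6 in the window, had a log2 fold change above 1, the fold threshold of the study, against 1.58% of all islands in the list. The cluster was chosen with these folds known, so nothing is read from that comparison. The lower counting bound was above 1 for the first island alone, as it was for 0.183% of all islands. Whether any of the 3 lies in a blacklisted region, which the study removed in a later step, was not tested.

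Over the whole list, fold was lower in wider islands. Only islands with an FDR below 0.05 are listed, so narrow islands with few reads and a low fold would be missing. The part of this filter in the trend was not tested. The median was 1.07 on the log2 scale for the 161 islands of 1000 bp or less, 0.73 in the 646 of over 1000 and up to 2000 bp, 0.49 in the 9868 up to 4000 bp, 0.38 in the 17420 up to 8000 bp and 0.26 in the 4665 wider ones. Of the 41 islands that were 400 bp wide, 78.0% had a log2 fold change above 1, and 12 were higher than the first island of MS4A1, whose value of 1.498 lay within their quartiles of 1.02 and 1.53. Of the 108 islands of 1600 bp, 25.0% were above 1 and 13 were higher than the second island, with a median of 0.81. Of the 1153 islands of 3200 bp, 2.86% were above 1 and 12 were higher than the third island, with a median of 0.49. The first island, the highest of the 3 by fold, lay within the middle range for its width, while 1.04% of islands as wide exceeded the third, the lowest of the 3. These shares describe the list only, since the islands were chosen with their folds known, and nothing is read from them.

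**Figure D2:**
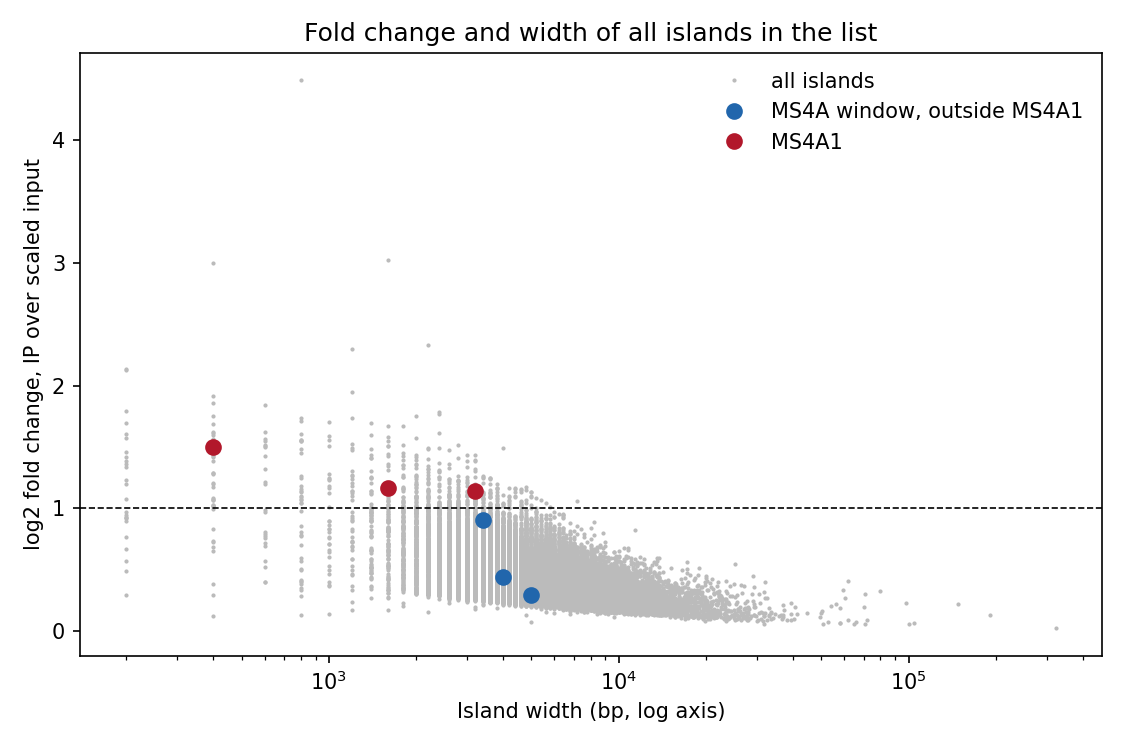
Log2 fold change, IP against scaled input (y axis), by island width in bp on a log axis (x axis) for all 32760 islands (grey dots), the 3 islands of MS4A1 (red) and the 3 others of the MS4A window (blue), with a dashed line at 1. The upper edge of the grey cloud falls with width, and the red point at 3200 bp lies near it. The one at 1600 bp has 13 of the 108 islands of its width above it, and the one at 400 bp lies among many others.

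Reads were densest at the start of MS4A1 in both kinds of library. The first island held 250.0 IP reads per kb (95% Poisson interval 203 to 304) and 157.5 input reads per kb (121 to 202), not scaled for the deeper input. The second held 51.2 IP and 40.6 input reads per kb, and the third 39.1 IP and 31.6 input reads per kb. The 3 islands outside MS4A1 held 26.8 to 30.3 IP reads per kb and 28.8 to 39.2 input reads per kb. The first island therefore stood out in unprecipitated DNA too, with an interval above those of the other 5. Among the 41 islands of its width, 7 had more IP reads per kb and 12 more input reads per kb, the medians being 152 and 118. For the second, 29 of the 108 islands as wide had more IP reads per kb and 87 had more input reads per kb, with medians of 47.5 and 50.9. For the third, 86 of the 1153 islands as wide had more IP reads per kb and 1111 had more input reads per kb, with medians of 33.8 and 42.8. All 3 were above the median of their width in IP reads, while in input reads the first was above it and the second and the third were below. Fold is made of these same IP and input reads, and the islands were chosen with both known. The densities are therefore no result apart from the fold. The part of the input density in the fold of each island was not tested.

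**Figure D3:**
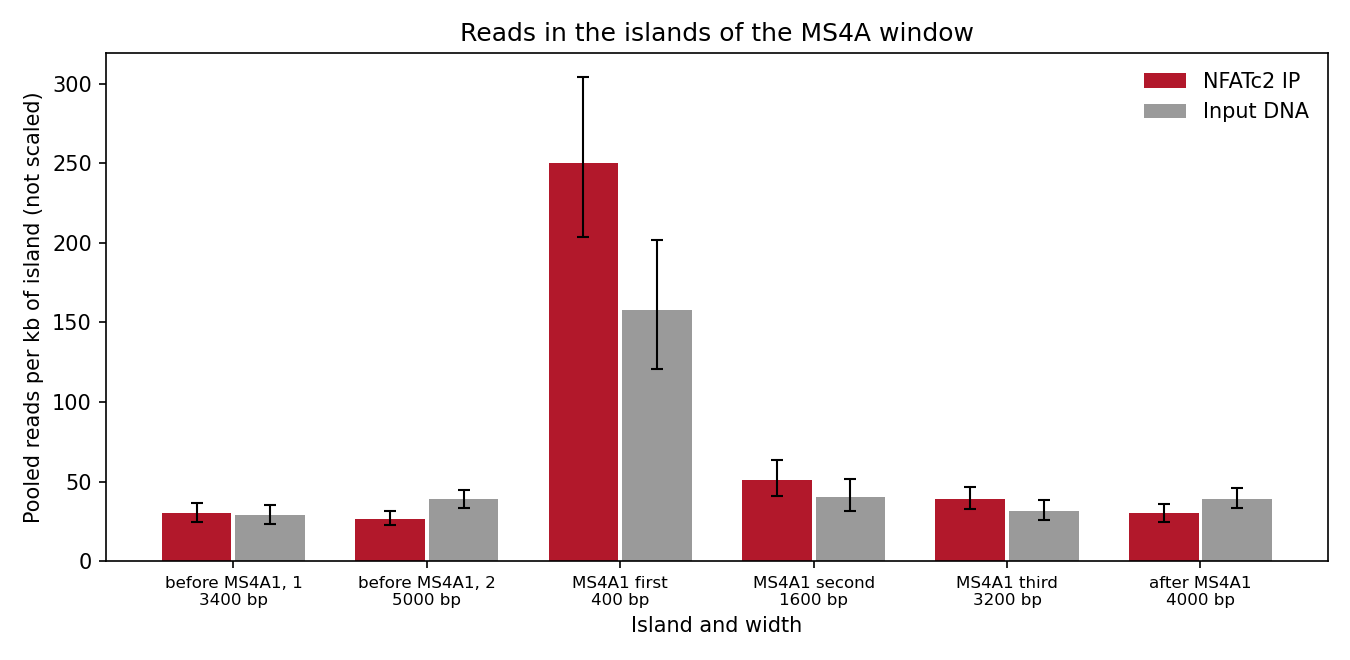
Reads per kb of island (y axis, pooled libraries, not scaled for depth) in NFATc2 IP (red bars) and Input DNA (grey bars) for the 6 islands of the MS4A window in genome order, with their widths (x axis) and 95% Poisson intervals as error bars. The 400 bp island near the start of MS4A1 reaches 250.0 IP and 157.5 input reads per kb, and the other 5 stay at or below 51.2 IP and 40.6 input reads per kb.

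The 10 Mb around the window, 5 Mb on each side, held 17 islands, or 1.7 per Mb, while the window held 7.5 per Mb. Islands covered 2.2% of the window and 0.728% of the surrounding 10 Mb. The window was chosen by its islands, so its higher rate is no result. The 401 islands of chromosome 11 covered 1938.6 kb over a span of 134710 kb, and all 32760 islands covered 187755 kb. No rate per Mb over the whole genome was computed, so whether the window is rich in islands against the genome was not tested. The islands of the window had a median log2 fold change of 1.02 and those around it 0.64, where values ran from 0.25 to 1.06 and 2 of 17 islands were above 1. By fold value alone, each of the 3 islands of MS4A1 was higher than all 17. The 2 surrounding islands above 1 had 1.05 (0.70 to 1.40) and 1.06 (0.92 to 1.20), intervals that overlapped those of all 3. The second of these, at chr11:65265801-65273000, held 942 IP reads and had a −log10 FDR of 86.6, against at most 16.1 in MS4A1. Surrounding islands had a median width of 4000 bp, and fold was lower in wider islands over the whole list. The surrounding islands were unevenly placed, with 7 of them within 102 kb at the far end of the 5 Mb before the window. Those 7 had log2 fold changes of 0.26 to 0.94. Of the 401 islands on chromosome 11, 29 were above 1, or 7.23% against 1.58% of all islands, which is 517 of 32760. Such a share also depends on how many weaker islands are listed on the chromosome. The part of that number in the difference was not tested. The median log2 fold change was 0.49 on chromosome 11 and 0.39 over all islands.

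At the edges of the window, the nearest islands left out lay at chr11:59193401-59199800, with a log2 fold change of 0.28, and at chr11:61734801-61736600, with 1.05. They were 672 kb and 1.42 Mb from the nearest island of the window.

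The 3 islands of MS4A1 spanned 15.8 kb in all, and over the genome 2 stretches of that length or less held at least 3 islands above a log2 fold change of 1. MS4A1 was in one of them, and the other was on chromosome 5 from 149781201 to 149793600, with 3 islands at 1.06 to 1.48. Both the length and the fold limit were set on the MS4A1 islands themselves, so the count is a description of the list.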

How the data were processed

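NFATc2 ChIP and Input DNA libraries (3 each) of THP-1 cells were analysed from 1 deposited list of islands. The build is hg19 and the tools in the submitters' processing notes include BWA 0.7.17.1 for reads and SICER 0.0.52, while Trimmomatic 0.36.5, ChIPseeker 1.18.0 and SAMtools 1.3.1 are also listed there; the paper names epic2 as the caller. For each island the authors deposited a log2 fold change of pooled IP reads over scaled input reads, a score (the whole part of 100 times that log2 value in all 32760 islands), −log10 of the Poisson p-value and −log10 of the FDR, all below 0.05. No header gives these names; they were read from the layout and the values.

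IP reads were worked out as the whole number that gives the deposited p at the deposited fold, and input reads from these with a scaling factor of 0.5618. Input reads came out whole within 0.02 in 32751 islands, all those of the MS4A window among them. Coordinates were counted from 1. Counting intervals are exact Clopper-Pearson (fold) or exact Poisson (reads per kb) intervals at 95%. They cover counting error only, and reads are not independent molecules. An overlap of 1 bp placed an island in the window or gene. Because libraries were pooled and the window was chosen on these values, no test was made. The position of MS4A1 is approximate, to the nearest kb, and no hg19 annotation was used here.

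Members and lists were chosen with earlier results of these data known. All islands of the window are named, as are the MS4A genes by RefSeq order. Alternatives were a stricter FDR, full containment, merging of islands, a wider surrounding region and other fold limits. Computation was in Python 3.11.15 with scipy 1.17.1, numpy 2.4.6 and pandas 2.3.3, and plots in matplotlib 3.10.9.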

Additional observations from a re-analysis of the deposited data

How the results depend on the processing

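Of 46 values recomputed under the alternatives, 40 moved by less than counting error or, for counts, rates and shares, by no more than 1.5 times. At FDR below 0.001, which left 4 islands in the window, islands covered 1.08% of it in place of 2.2%, and their median was 45.2 IP reads per kb in place of 34.7. The 3 islands of the window above a log2 fold change of 1 became 0 above 1.5, 5 with a lower counting bound above 0 and 1 with that bound above 1. The window held 4.41 times the islands per Mb of the surrounding 10 Mb, and 3.75 times with 10 Mb on each side. It was 7.35 times without the 7 islands at the far end, an alternative chosen after the data were seen. Each ratio compares a window chosen by its islands with nearby parts of the same chromosome only. No ratio to the whole genome was computed. Islands in MS4A1 numbered 3 at each FDR limit, and 2 where the whole island had to lie in the gene. Stretches with at least 3 islands above 1 numbered 3 up to 20 kb and 3 up to 50 kb, limits also added later. No paired analysis was possible because islands carry 1 pooled value each, which also means that leaving out a replicate could not be tried. Depth limits single folds: the interval of the second MS4A1 island runs from 0.68 to 1.66.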

Other observations

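Runs of neighbouring islands that all had a log2 fold change above 1, with no weaker island between them, were counted over the whole list. In it 517 of 32760 islands, or 1.58%, were above 1. No expected number of runs was computed, so whether they are rare or frequent was not tested. The list held 9 runs of at least 3 such islands, with a median length of 505 kb. The 15.8 kb run in MS4A1 was the second shortest, after that of 12.4 kb on chromosome 5 from 149781201 to 149793600 and before that of 17.6 kb on chromosome 19 from 18682401 to 18700000. The 3 islands of the chromosome 5 run were 1400 to 2600 bp wide, with log2 fold changes of 1.06 to 1.48, and the 3 of the chromosome 19 run were 200 to 600 bp wide, with 1.38 to 1.62. The next in length was on chromosome 14 from 105953201 to 106322400, with 3 islands over 369 kb. The remaining runs, of 504.6 to 26653.4 kb, were on chromosomes 1, 5, 11, 17 and X. No hg19 annotation was used here, so the genes in these other runs are not given. Whether these runs, like that in MS4A1, lie in genes of B lymphocytes, and whether the cells match their label, was not tested. The runs were looked for after the MS4A1 islands were seen.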
